A study of Mus musculus with 6 samples.

Results

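The histone lysine methyltransferases and demethylases studied here are the 39 genes, of 18388 in the deposited table, whose symbols begin with Kdm, Kmt, Setd or Nsd followed by a number (or, for Setd, a B). They were chosen by name, but the set was proposed with the PFOA and DMSO values of these same libraries known, so every difference between the groups below is a description and carries no p-value. Gene expression was measured by polyadenylated RNA-seq in morula-like aggregates, a 3-dimensional culture of mouse expanded pluripotent stem cells that stands in for the embryo at compaction. There were 3 libraries from vehicle controls (DMSO) and 3 from aggregates exposed to PFOA (perfluorooctanoic acid, a persistent fluorinated surfactant). Every aggregate was grown in N2B27LCDM medium and then in an induction medium, at 37 °C under 5% CO2 and 20% O2. Strain, dose and exposure time were not given in the sources used here. Whether the 3 libraries of a group stem from different cultures is not stated, so the spread between them may be technical.

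Histone tails carry methyl groups on lysines, and the position of the lysine sets what the mark is known for. Methylation of H3K4 marks promoters and enhancers, H3K36 the bodies of transcribed genes, H3K9 heterochromatin and silenced retroelements, H3K27 Polycomb-repressed genes, and H4K20 the cell cycle and compacted chromatin. Writers of these marks carry a SET domain and use S-adenosylmethionine. Erasers are either flavin-dependent amine oxidases (Kdm1a and Kdm1b) or JmjC dioxygenases that need iron and 2-oxoglutarate. In pluripotent cells and the early embryo these enzymes are known for holding enhancers open, silencing retroelements and clearing marks inherited from the gametes.

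The series title names c-MYC, whose dimer with MAX binds the E-box CACGTG, so the starts of these genes were searched for it. RefSeq promoter entries (GRCm38.p6, 250 bases before to 50 after a start) matched 28 of the 39 genes, with 38 starts. The E-box, which reads the same on both strands, was found in 2 of the 28 genes (7.14%), against 10.3% of the 14366 genes of the table that have an entry. Those 2 genes were Kdm4c, a demethylase of H3K9, and Kdm6a, an X-linked demethylase of H3K27. Both are shown as 100 bases upstream of a start, 5′ to 3′ on the gene's own strand, with the E-box in capitals. The Kdm4c stretch is chr4:74251779-74251878 (plus strand), from the second of its 2 starts, and the Kdm6a stretch is chrX:18162475-18162574 (plus strand).
Kdm4c: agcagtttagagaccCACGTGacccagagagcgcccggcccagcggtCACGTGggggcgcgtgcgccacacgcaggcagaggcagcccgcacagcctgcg
Kdm6a: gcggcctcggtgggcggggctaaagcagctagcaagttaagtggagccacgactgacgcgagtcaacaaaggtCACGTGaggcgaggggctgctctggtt

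The 250 bases upstream of 3 further genes are shown because Kmt2a and Setd2 were among the members that stood highest in PFOA and Kdm8 was the member that stood lowest. Capitals mark CCGGAA, the core of ETS factor sites, and GGGCGG, the GC box bound by SP factors, each on either strand (TTCCGG and CCGCCC). Neighbouring GC boxes overlap in Setd2. The stretches are chr9:44881290-44881539 (minus strand) for Kmt2a, chr9:110532347-110532596 (plus strand) for Setd2 and chr7:125444370-125444619 (plus strand) for Kdm8.
Kmt2a: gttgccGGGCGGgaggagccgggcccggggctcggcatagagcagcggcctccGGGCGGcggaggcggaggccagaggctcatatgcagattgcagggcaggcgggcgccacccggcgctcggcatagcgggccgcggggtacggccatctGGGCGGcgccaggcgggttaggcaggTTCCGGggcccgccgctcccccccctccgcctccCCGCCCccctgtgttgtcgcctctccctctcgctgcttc
Setd2: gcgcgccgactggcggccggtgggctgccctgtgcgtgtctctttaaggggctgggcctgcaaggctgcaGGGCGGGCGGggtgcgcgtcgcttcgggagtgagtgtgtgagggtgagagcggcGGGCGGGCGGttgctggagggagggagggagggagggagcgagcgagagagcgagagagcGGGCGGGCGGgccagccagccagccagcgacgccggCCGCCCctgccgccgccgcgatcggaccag
Kdm8: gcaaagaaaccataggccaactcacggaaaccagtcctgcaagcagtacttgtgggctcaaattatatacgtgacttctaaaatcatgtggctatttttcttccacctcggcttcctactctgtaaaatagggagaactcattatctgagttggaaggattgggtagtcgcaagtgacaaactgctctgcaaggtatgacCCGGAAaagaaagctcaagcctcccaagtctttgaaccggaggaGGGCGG
The GC box stood 4 times upstream of Kmt2a, 7 times upstream of Setd2 and 1 time upstream of Kdm8. Over the whole promoter entries, the GC box was found in 64.3% of the 28 genes, against 58.8% of all 14366. CCGGAA was found in 35.7% against 24.8%, and CCAAT (or ATTGG on the other strand) in 46.4% against 42.8%.

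The level of each gene was read as FPKM, a fragment count divided by transcript length and by library size, which allows levels to be compared between genes. The number of fragments behind each library is unknown. The 39 genes together made up 0.143% to 0.148% of all FPKM in the DMSO libraries and 0.155% to 0.177% in the PFOA libraries. Their own sum was 938 to 947 FPKM in DMSO and 980 to 1038 in PFOA. The total of all genes was 641975 to 657239 FPKM in DMSO and 585739 (PFOA 1) to 630644 in PFOA. Part of the rise in share thus lies in the smaller total. Of the 39, 38 had a mean of at least 1 FPKM over the 6 libraries, and their median level was 16.6 FPKM, against 12.04 for all 11876 genes that passed the same limit. Levels spanned from Kdm1a at 93.9 to Kdm5d at 1.19 (means over the 6 libraries). Kdm4d, a testis-rich H3K9 demethylase, was the member below the limit, between 0.07 and 0.28 FPKM. It stays in the order of levels and in the family shares, but takes no part in the counts over the 38 genes.

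**Figure D1:**
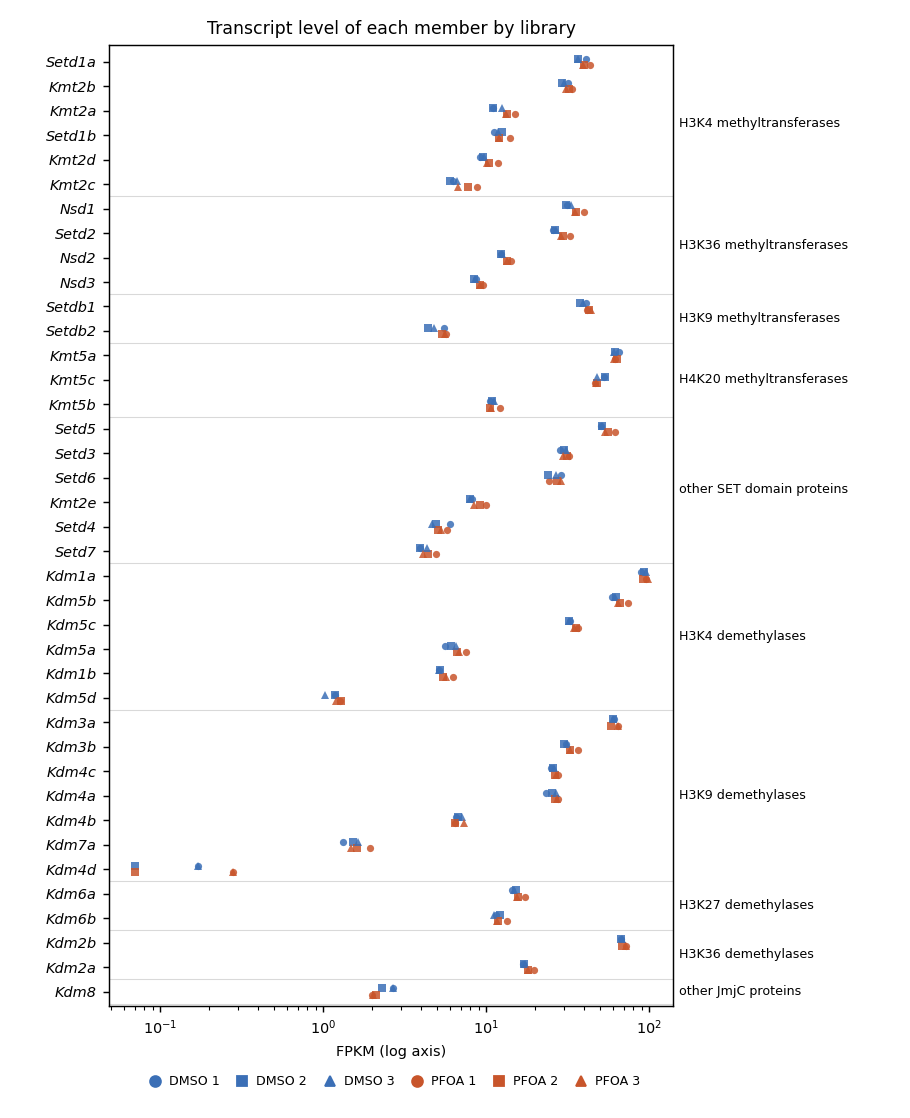
FPKM of each of the 39 genes (log axis), grouped by the mark the enzyme is known to act on and ordered by level, with 1 point per library: DMSO in blue, PFOA in orange. Kdm1a, at 89.5 to 97.9 FPKM, lies above every other gene in all 6 libraries, and the 2 colours lie close together for each gene beside the distance between genes.

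Kdm1a (LSD1), which removes H3K4 methyl groups within the CoREST complex, had the highest level, from 89.5 to 97.9 FPKM over the 6 libraries. The next genes in the order were Kdm2b (66.7 to 72.2), a CpG-island-binding H3K36 demethylase that recruits a Polycomb complex, Kdm5b (59.0 to 74.4), an H3K4 demethylase, Kmt5a (60.6 to 65.5), which monomethylates H4K20, and Kdm3a (58.0 to 64.4), which demethylates H3K9. Kdm1a did not overlap Kdm2b, while each of the other neighbours in this order overlapped the next. Along the whole order, 8 of 38 pairs of neighbours did not overlap in range over the 6 libraries. At the other end stood Setd7 (3.90 to 4.92 FPKM), which methylates H3K4 once and many other proteins, Kdm8 (1.98 to 2.69), a JmjC protein whose histone activity is disputed, Kdm7a (1.32 to 1.93), which acts on H3K9 and H3K27, and the Y-linked H3K4 demethylase Kdm5d (1.03 to 1.28).

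Of the 39 genes, 31 fall into 11 families, 6 of them pairs, and the share of the summed level that each paralog held was compared within its family. Kdm1a made up 94.7% ± 0.15 of the Kdm1 pair without PFOA and 94.3% ± 0.39 with it (SD, n = 3 each). Kdm5b made up 60.8% ± 0.70 of the Kdm5 family in DMSO and 61.0% ± 1.1 in PFOA, and its X-linked paralog Kdm5c 32.1% ± 0.87 and 31.7% ± 1.1. Nsd1, which dimethylates H3K36, made up 60.2% ± 0.88 of the Nsd family in DMSO and 61.6% ± 0.88 in PFOA. Setdb1, the H3K9 methyltransferase that silences retroelements with Trim28, made up 89.0% ± 0.80 of its pair in DMSO and 88.5% ± 0.45 in PFOA. The H3K27 demethylases were more even, with Kdm6a at 55.9% ± 0.87 in DMSO and 56.8% ± 0.43 in PFOA.

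In 3 of 11 families the shares of 5 of the 31 genes did not overlap between the groups, with Kdm1a and Kdm1b counted as 2 although each share of a pair fixes the other. No such count over other families was made. Values by library are given here and below in replicate order, 1 to 3. In the Kmt2 family, Kmt2b, which acts on bivalent promoters, held 47.8%, 45.9% and 44.9% of the control total and 42.3%, 44.2% and 44.5% under PFOA. The level of Kmt2b itself was not lower in PFOA. Its log2 difference was 0.082, with groups that overlapped, and that of each Kmt2 paralog was larger (0.16 to 0.26). In the Kmt5 family, Kmt5a held 50.9%, 48.9% and 50.7% of the control total and 51.2%, 52.1% and 51.2% of the total under PFOA. Its paralog Kmt5c, which writes H4K20 trimethylation, held 40.9%, 42.5% and 39.9% without PFOA and 38.7%, 39.3% and 39.8% with it. In the Kdm1 pair, Kdm1b held 5.41%, 5.29% and 5.11% in controls against 6.17%, 5.54% and 5.45% under PFOA, with Kdm1a as the remainder. Each of these gaps between the groups was under 1 percentage point at its narrowest.

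**Figure D2:**
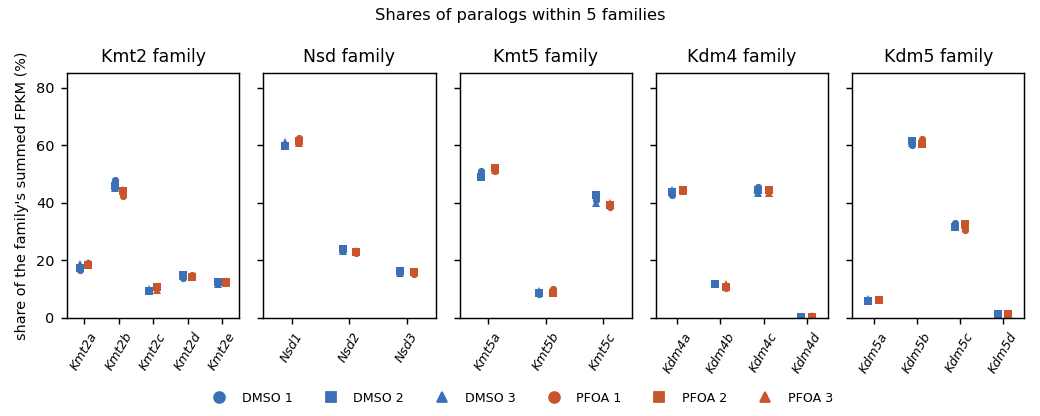
Share of the summed FPKM of a family held by each paralog (y axis, percent), for 5 families, with 1 point per library: DMSO in blue, PFOA in orange. Nsd1 and Kdm5b hold about 60% of their families in both groups. The share of Kmt2b, but not its level, lies lower in PFOA (42.3% to 44.5%) than in DMSO (44.9% to 47.8%).

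Compared with DMSO, most of the genes were slightly higher in PFOA. Of the 38 genes, 34 had a higher mean on the log2(FPKM + 1) scale, against 47.6% of all 11876 genes tested, and 4 had a lower one (Kdm8, Kmt5c, Kmt5a and Kdm4b). The median log2 difference, PFOA minus DMSO, was 0.11, against −0.0065 over all genes tested, and the members ranged from −0.22 to 0.26. In 19 of the 38, every PFOA library was above every DMSO library (13.5% of all genes tested), and in 1, Kdm8, every PFOA library was below (13.7%). None passed the threshold in limma (0 of 38 with a Benjamini-Hochberg adjusted p under 0.05, against 0.00842% of all genes). At an unadjusted p under 0.05 in limma, 16 were higher (8.56% of all genes) and 2 lower (12.5%). The count of 16 was 1 with a trend on transcript length removed (6.37% of all genes). With DMSO 3 as the sole control the median log2 difference of the 38 genes was 0.11, against 0.0027 over all genes tested. A fit with 1 control library has little power, so no count is given for it. The counts above describe the contrast from which the set was proposed and show nothing beyond it. In bulk RNA, fewer cells of a type and less RNA per cell cannot be told apart.

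Transcript length and 1 library moved with this difference. The median length of the longest coding transcript was 6468 nt over the 38 genes and 3048.5 nt over all genes tested, and in the table as a whole longer transcripts were higher in PFOA. Of the 38 genes, 28 had their highest value in PFOA 1 (26.6% of all genes tested). The medians over the genes, set against the mean of the controls on the log2 scale, were −0.013, −0.0060 and 0.014 for DMSO 1 to 3. For PFOA 1 to 3 they were 0.18, 0.081 and 0.075. Without PFOA 1 the median log2 difference was 0.071, with 34 of 38 genes higher and 19 whose groups lay apart with PFOA above (47.7% and 16.1% of all genes tested). Leaving it out made the log2 difference of 17 of the 38 genes smaller by more than 1.5 times, among them Kmt2d (from 0.16 to 0.095), Kdm5b (0.15 to 0.091), Setd5 (0.16 to 0.098), Kmt2e (0.17 to 0.11), Kdm3b (0.14 to 0.084), Kdm1b (0.14 to 0.085) and Kdm6a (0.12 to 0.081). Kdm4b and Kmt5b changed sign without it. Leaving out any other library made 0 to 6 genes smaller by as much. DMSO 1 and 2 stood over 2-fold above the other 4 libraries in 11 genes of the table, 0 of them members, and DMSO 3 was therefore also used as the sole control.

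**Figure D3:**
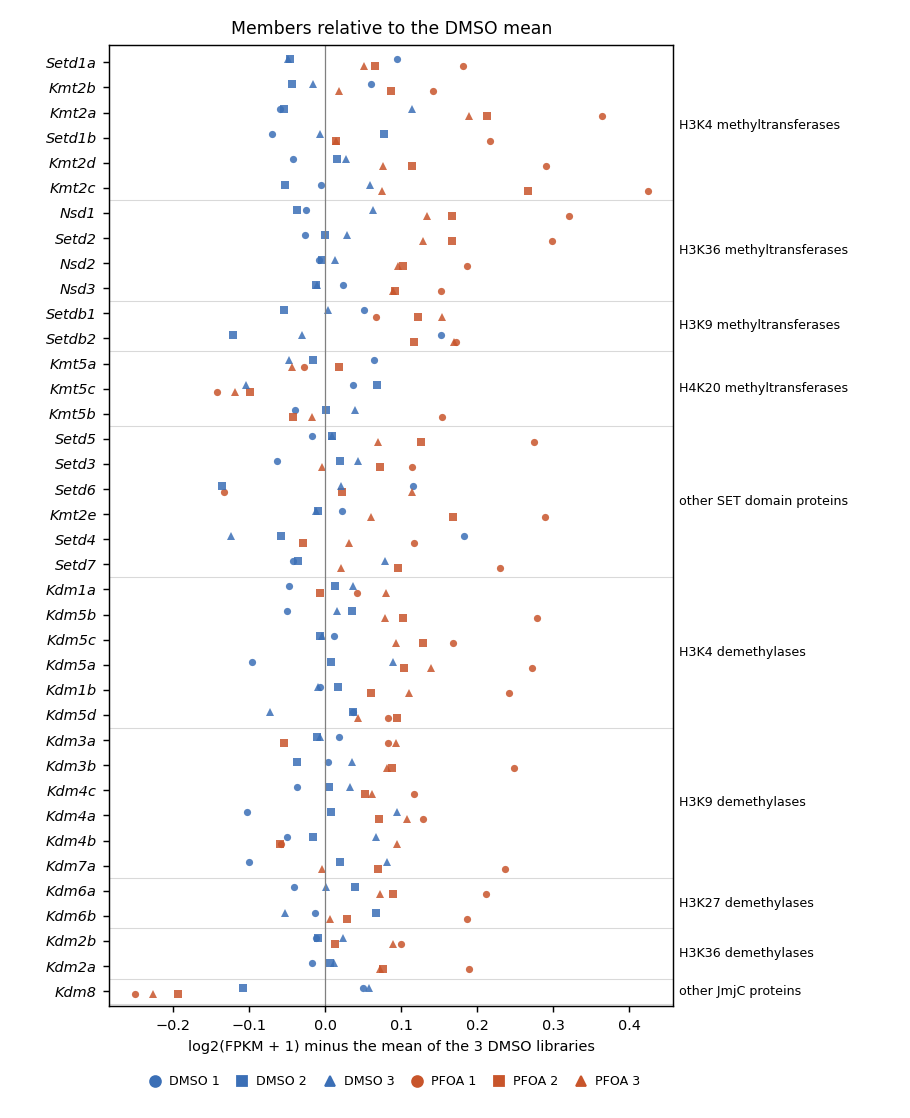
Values of the 38 genes in each library as log2(FPKM + 1) minus the mean of the 3 DMSO libraries (x axis), grouped by role, with DMSO in blue and PFOA in orange. PFOA 1 (orange circles) lies farthest right for 28 of the 38 genes, and Kdm8 is the gene whose PFOA points all lie left of its DMSO points.

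The methyltransferases of H3K4 were higher in PFOA in 6 of 6 members, and 3 of these lay apart. Their median transcript length was 11912 nt. Of all tested genes of 8000 nt and over, 92.75% were higher and 49.4% lay apart with PFOA above. Kmt2a (MLL1), known for keeping Hox genes active, was 11.0, 11.0 and 12.5 FPKM in the controls and 15.1, 13.5 and 13.2 under PFOA. DMSO 3 was the highest control and PFOA 1 the highest of all, and the log2 difference was 0.26 (SE 0.068). Against DMSO 3 alone that difference was 0.14. Kmt2c (MLL3), an enhancer H3K4 monomethyltransferase, was 6.27, 6.03 and 6.60 FPKM in the controls and 8.79, 7.78 and 6.68 under PFOA, so that PFOA 3 lay just above DMSO 3 (log2 difference 0.26, SE 0.087). Its enhancer partner Kmt2d (MLL4) was 9.19, 9.60 and 9.69 FPKM in the controls and 11.8, 10.4 and 10.1 under PFOA (log2 difference 0.16, SE 0.064). The other 3 overlapped between the groups: Kmt2b and Setd1b had log2 differences of 0.082 each, and Setd1a 0.099. Setd1a, which writes most H3K4 methylation at promoters with its paralog, was 40.7, 36.8 and 36.8 FPKM in the controls and 43.3, 39.9 and 39.4 under PFOA. It shares 54.0% of its 50-nt words with the transcripts of other genes, so its level is uncertain where reads could be split.

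The H3K36 methyltransferases were higher in 4 of 4, and all 4 lay apart. All 4 have long transcripts (7786 to 12784 nt). Of all tested genes of 8000 nt and over, 92.75% were higher and 49.4% lay apart with PFOA above. At 6000 to under 8000 nt these shares were 86.7% and 38.2%. Nsd1, mutated in an overgrowth syndrome, was 31.2, 30.9 and 33.2 FPKM in the controls and 39.9, 35.8 and 34.9 under PFOA (log2 difference 0.21, SE 0.056). Setd2, the enzyme of H3K36 trimethylation that travels with RNA polymerase II, was 25.8, 26.3 and 26.8 FPKM in the controls and 32.6, 29.6 and 28.8 under PFOA (log2 difference 0.20, SE 0.051). In both genes the controls were tight and PFOA 1 stood highest. Nsd2 was 12.4 ± 0.11 FPKM in the controls and 13.7 ± 0.52 under PFOA, and Nsd3 8.55 ± 0.14 and 9.32 ± 0.26 (SD, n = 3 each).

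Of the H3K9 methyltransferases both were higher, and Setdb1 lay apart. Their longest transcripts are 4658 nt (Setdb1) and 3034 nt (Setdb2). At 4000 to under 6000 nt, 70.6% of all tested genes were higher and 22.9% lay apart with PFOA above. These shares were 43.0% and 7.73% at 2000 to under 4000 nt. Setdb1 was 40.8, 37.9 and 39.5 FPKM in the controls and 41.3, 43.0 and 43.9 under PFOA (log2 difference 0.11, SE 0.043). Unlike in the 28 genes with their highest value in PFOA 1, that library was the lowest of the PFOA libraries for Setdb1. Setdb2, a lowly expressed paralog, was 5.54, 4.41 and 4.76 FPKM in the controls and 5.63, 5.38 and 5.62 under PFOA, where DMSO 1 lay within the PFOA range.

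Of the 3 H4K20 methyltransferases 1 was higher and 2 were lower, and none of the 3 lay apart. Their median transcript length was 2774 nt. At 2000 to under 4000 nt, 43.0% of all tested genes were higher, and 7.73% lay apart with PFOA above. Kmt5a was 65.5, 62.0 and 60.6 FPKM in the controls and 61.4, 63.5 and 60.7 under PFOA, which overlapped (log2 difference −0.018, SE 0.041). Kmt5c was 52.7, 53.9 and 47.7 FPKM in the controls and 46.4, 47.9 and 47.2 under PFOA. Its DMSO 3 lay within the PFOA range, and the log2 difference was −0.12 (SE 0.050) with all controls and −0.015 against DMSO 3 alone. Kmt5b, which dimethylates H4K20, was 10.9 ± 0.33 FPKM in the controls and 11.1 ± 0.92 under PFOA (SD, n = 3 each).

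Among the other SET domain proteins 6 of 6 were higher and 2 lay apart. Their transcripts run from 1707 to 7411 nt, with a median of 4755 nt. At 4000 to under 6000 nt, 70.6% of all tested genes were higher and 22.9% lay apart with PFOA above. These shares were 86.7% and 38.2% at 6000 to under 8000 nt, where Setd5 and Kmt2e, the 2 that lay apart, fall. Setd5, a SET protein linked to intellectual disability whose enzymatic activity is debated, was 50.3, 51.2 and 51.2 FPKM in the controls and 61.8, 55.6 and 53.4 under PFOA (log2 difference 0.16, SE 0.053). Kmt2e (MLL5), which reads H3K4 methylation and lacks methyltransferase activity, was 8.13, 7.93 and 7.91 FPKM in the controls and 9.98, 9.10 and 8.37 under PFOA (log2 difference 0.17, SE 0.065). Both showed the same order, with PFOA 1 highest and PFOA 3 nearest the controls. Setd7 was 3.90, 3.92 and 4.33 FPKM in the controls and 4.92, 4.39 and 4.12 under PFOA, so the groups overlapped. Setd3, which methylates a histidine of actin, had a log2 difference of 0.060 and shares 37.6% of its 50-nt words with another gene. Setd4 (0.039) and Setd6 (0.0013), which methylates the NF-kappa-B subunit RelA, had the smallest differences on the log2 scale in this group.

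Among the demethylases of H3K4, 6 of 6 were higher and 5 lay apart, Kdm1a being the exception. Their median transcript length was 7211.5 nt. Of all tested genes of 6000 to under 8000 nt, 86.7% were higher and 38.2% lay apart with PFOA above. Kdm1a was 89.5, 93.4 and 95.0 FPKM in the controls and 95.3, 92.2 and 97.9 under PFOA, which overlapped (log2 difference 0.038, SE 0.040). Its paralog Kdm1b, known for clearing H3K4 methylation in the oocyte, was 5.12, 5.22 and 5.11 FPKM in the controls and 6.27, 5.41 and 5.64 under PFOA (log2 difference 0.14, SE 0.063). Kdm5b, known for keeping H3K4 methylation focused at promoters in embryonic stem cells, was 59.0, 62.7 and 61.8 FPKM in the controls and 74.4, 65.7 and 64.6 under PFOA (log2 difference 0.15, SE 0.057). PFOA 1 stood apart from the other libraries in Kdm5b. The values of Kdm5c were tighter within each group: it was 32.5, 32.1 and 32.1 FPKM in the controls and 36.3, 35.3 and 34.5 under PFOA (log2 difference 0.13, SE 0.037). Kdm5a, which binds the retinoblastoma protein, was 6.06 ± 0.45 FPKM in the controls and 6.96 ± 0.50 under PFOA (SD, n = 3 each). The Y-linked Kdm5d, near the limit of 1 FPKM, was 1.19, 1.19 and 1.03 FPKM in the controls and 1.26, 1.28 and 1.20 under PFOA. Its lowest PFOA library lay only just above its highest controls. The log2 difference of Kdm5d, 0.073, was smaller than its SE (0.076).

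Of 6 tested demethylases of H3K9, 5 were higher and 2 lay apart, Kdm3b and Kdm4c. Their median transcript length was 4758 nt. At 4000 to under 6000 nt, 70.6% of all tested genes were higher and 22.9% lay apart with PFOA above. Kdm3b was 30.8, 29.9 and 31.5 FPKM in the controls and 36.6, 32.7 and 32.5 under PFOA (log2 difference 0.14, SE 0.053). Its annotated exons overlap an antisense gene over 24.6% of their bases, and the strandedness of the counting is not given in the sources used here. Kdm4c, which also acts on H3K36 and carries the E-boxes shown above, was 24.8, 25.6 and 26.1 FPKM in the controls and 27.8, 26.5 and 26.7 under PFOA (log2 difference 0.077, SE 0.040). The highest control of Kdm4c lay only just below the lowest PFOA library. Kdm3a, a hypoxia-inducible gene, overlapped, at 60.3 ± 0.65 FPKM in the controls and 62.1 ± 3.5 under PFOA (SD, n = 3 each), with PFOA 2 the lowest of all 6. Kdm4a (log2 difference 0.10), Kdm4b (−0.0078) and Kdm7a (0.10) overlapped as well.

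Both H3K27 demethylases were higher, and Kdm6a lay apart. Kdm6a (UTX), a subunit of the Kmt2c and Kmt2d complexes, was 14.3, 15.2 and 14.8 FPKM in the controls and 17.2, 15.7 and 15.5 under PFOA (log2 difference 0.12, SE 0.052). Kdm6b, a signal-induced enzyme, overlapped, with a log2 difference of 0.074. Both H3K36 demethylases were higher too, and Kdm2a lay apart. The median transcript length was 6294.5 nt for the H3K27 and 6879 nt for the H3K36 demethylases. At 6000 to under 8000 nt, 86.7% of all tested genes were higher and 38.2% lay apart with PFOA above. Kdm2a was 17.0 ± 0.20 FPKM in the controls and 18.5 ± 0.91 under PFOA, and Kdm2b 67.3 ± 0.94 and 70.5 ± 2.3 (SD, n = 3 each), where PFOA 2 lay within the DMSO range.

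Kdm8 (JMJD5) stood alone on the other side. It was 2.67, 2.29 and 2.69 FPKM in the controls and 1.98, 2.10 and 2.03 under PFOA, that is 2.55 ± 0.23 against 2.04 ± 0.060 (SD, n = 3 each). The 3 PFOA values lay close together and below the lowest control, DMSO 2, and the log2 difference was −0.22 (SE 0.073). At this level the log2(FPKM + 1) scale understates the difference, which was −20.1% as a ratio of mean FPKM. Its longest coding transcript, 2389 nt, is among the shorter of the set.

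Within the set the log2 difference was larger for longer transcripts. Across the 38 genes, which are not independent replicates and share the same libraries, Spearman's rho between the longest coding transcript and the log2 difference was 0.70. It was 0.60 across the 11536 tested genes with a known length. The 12 genes of at least 8000 nt were all higher, with a median log2 difference of 0.16, against 0.13 over all 593 tested genes of that length. Of those 593, 92.75% were higher and 49.4% lay apart with PFOA above, beside 9 of the 12 that lay apart. The 10 genes of 6000 to under 8000 nt had a median of 0.12, against 0.092 for 890 genes. Of those 890, 86.7% were higher and 38.2% lay apart with PFOA above, beside 10 and 6 of the 10. The 8 genes of 4000 to under 6000 nt had a median of 0.089, against 0.044 for 2326 genes. The 6 genes of 2000 to under 4000 nt had a median of 0.010, against −0.013 for 4655 genes. The 2 genes under 2000 nt, Setd4 and Setd6, had a median of 0.020, against −0.10 for 3072 genes. In each length class the median of these enzymes, a set proposed from this contrast, was higher than that of all genes. The 2 shortest classes hold few of them, and of the 6 at 2000 to under 4000 nt, 3 were higher and 3 lower. Lengths were not matched within a class. Under 2000 nt the median length was 1766.5 nt for the 2 genes and 1410 nt for all genes. At 2000 to under 4000 nt it was 2764.5 nt and 2909 nt.

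**Figure D4:**
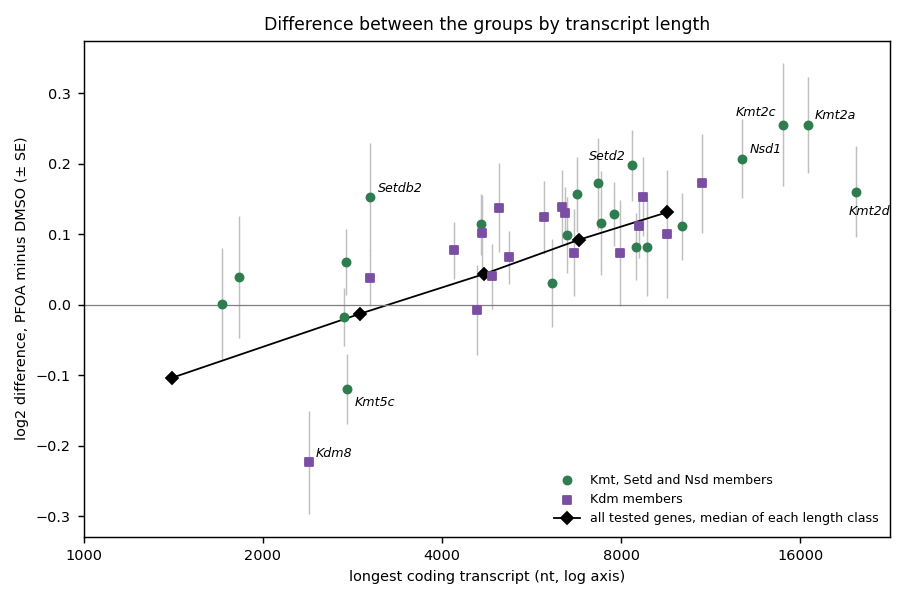
Log2 difference, PFOA minus DMSO (y axis, with the standard error from limma), of the 38 genes against the length of the longest coding transcript (x axis, log scale). Black diamonds are the medians of all tested genes in 5 length classes, which go from −0.10 under 2000 nt to 0.13 at 8000 nt and over, and most of the genes lie around that line, with Kdm8 and Kmt5c below it.

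With a trend on that length removed from each library, the median log2 difference over the 38 genes was 0.039, against 0.0022 over all genes tested, and 26 were higher (51% of all genes). The difference became smaller in size for 31 of the 38 genes. In 8 the groups still lay apart with PFOA above (10.7% of all genes after the same step), and all 8 had lain apart before: Kmt2a, Nsd1, Nsd2, Setd2, Kdm1b, Kdm3b, Kdm4c and Kdm5c. Kdm8 was again the single gene with every PFOA library below (9.47% of all genes), at a log2 difference of −0.19. Setd2 (0.090), Kdm1b (0.090) and Kmt2a (0.082) kept the largest values of the 8. By contrast 9 genes turned from higher to lower and Kmt5a from lower to higher, with Kmt2d at −0.031, Kdm5d at −0.030 and Nsd3 at −0.016 among them. The per-library medians were then −0.0030, 0.0052 and −0.011 for DMSO 1 to 3, against 0.046, 0.023 and 0.026 for PFOA. The part of transcript length in the difference was not tested beyond this step.

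**Figure D5:**
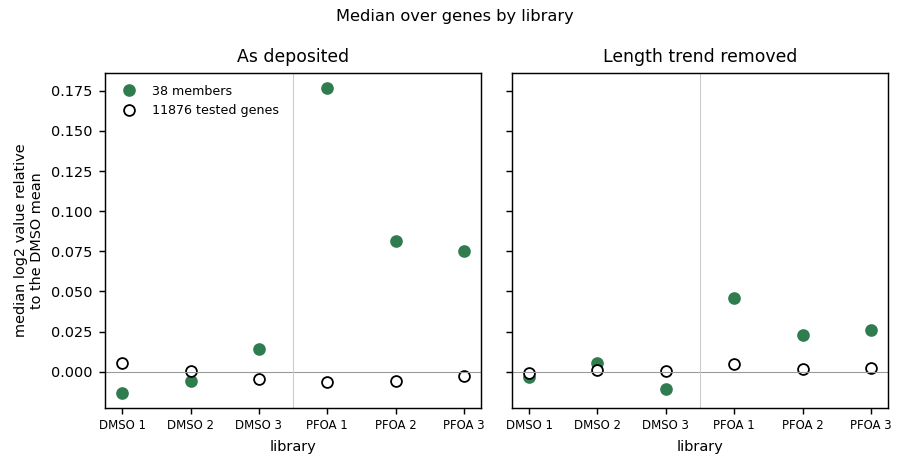
Median over the 38 genes (green) and over all 11876 tested genes (open circles) in each library, as the log2 value relative to the DMSO mean, before (left) and after (right) a trend on transcript length was removed. The green points of PFOA 1 to 3 lie at 0.18, 0.081 and 0.075 on the left and at 0.046, 0.023 and 0.026 on the right.

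The median SD on the log2 scale over the 38 genes was 0.054 in DMSO and 0.079 in PFOA, against 0.061 and 0.070 over all genes tested. The SD was larger in PFOA for 24 of the 38 genes (63.2%) and for 56.9% of all genes.

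Enzymes of the same kind with other symbols, and the partners of these enzymes, were read from lists chosen with earlier results of these data known. Of 19 tested lysine methyltransferases and demethylases with other names, 12 were higher and 7 lower; the median log2 difference was 0.035, and 2 lay apart with PFOA above and 1 below. The demethylase relative Jmjd1c was 31.7 ± 1.4 FPKM in the controls and 37.5 ± 2.7 under PFOA, and the H3K36 methyltransferase Ash1l 5.40 ± 0.13 and 6.27 ± 0.64 (SD, n = 3 each). Of 14 genes listed as subunits or partners of COMPASS, the complexes of the H3K4 methyltransferases, 8 were higher and 6 lower. Their median log2 difference was 0.0066. Psip1 is counted both on this list and on that of H3K36 methylation below. Bod1l, a Setd1b-associated protein with a long transcript (10540 nt), was 9.71 ± 0.31 FPKM in the controls and 11.3 ± 0.89 under PFOA. Ncoa6, a subunit of the Kmt2c and Kmt2d complexes, was 14.9 ± 0.25 and 16.9 ± 0.16. None of the genes on these lists passed the threshold in limma (0 of 19 and 0 of 14). At an unadjusted p under 0.05, 2 of the 19 were higher and 0 lower, and 4 of the 14 were higher and 2 lower, where 8.56% of all genes tested were higher and 12.5% lower. The 2 and 1 of the 19 whose groups lay apart, and 4 and 1 of the 14, stand beside 13.5% and 13.7% of all genes.

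Of 11 partners of Kdm1a in CoREST and related complexes, 7 were higher and 4 lower; the median log2 difference was 0.044. The zinc finger protein Zmym3 was 16.9 ± 0.91 FPKM in the controls and 18.4 ± 0.59 under PFOA (SD, n = 3 each). Of 10 partners of Setdb1 in heterochromatin, 7 were higher and 3 lower (median 0.058). Atf7ip, which stabilizes Setdb1 in the nucleus, was 27.3 ± 1.1 FPKM in the controls and 32.1 ± 2.7 under PFOA, and the heterochromatin protein Cbx5 57.5 ± 1.2 and 65.3 ± 3.2. Of 9 readers and partners of H3K36 methylation, 6 were higher and 3 lower (median 0.043), with the elongation factor Supt6 at 66.4 ± 2.1 and 74.9 ± 3.1 FPKM and Brd8 at 35.8 ± 1.6 and 38.7 ± 1.4. Of 10 enzymes that supply 2-oxoglutarate or S-adenosylmethionine, 4 were higher and 6 lower (median −0.041), and Ogdh was the 1 gene that lay apart, at 56.3 ± 0.65 and 61.3 ± 0.38 FPKM. In limma 0 genes of these 4 lists passed the threshold. At an unadjusted p under 0.05, 1 Kdm1a partner was higher and 1 lower, and 3 Setdb1 partners were higher and 1 lower. For H3K36 methylation 3 genes were higher and 0 lower, and 1 supply enzyme was higher and 0 lower. Of all genes tested, 8.56% were higher and 12.5% lower. Groups lay apart with PFOA above and below in 3 and 1 Kdm1a partners and in 3 and 1 Setdb1 partners. These counts were 3 and 0 for H3K36 methylation and 1 and 0 for supply, beside 13.5% and 13.7% of all genes.

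All 10 pluripotency markers were detected, with a summed level of 4348 to 4563 FPKM in the controls and 3776 to 4231 in PFOA. Of 8 trophectoderm markers 7 were at or above 1 FPKM (524 to 598 in DMSO and 508 to 579 in PFOA, most of it Krt8 and Krt18). Of 10 fibroblast markers 7 were (24.5 to 30.2 and 23.1 to 26.0), and of 7 primitive endoderm markers 2 were (7.50 to 8.62 and 8.05 to 8.46). No marker was at 0 in all 6 libraries. The summed pluripotency level was lower in every PFOA library than in any DMSO library, but its members went both ways. Dppa5a, Pou5f1 and Nanog (3 of 10) were lower in every PFOA library, and Esrrb, Tfcp2l1 and Sall4 (3 of 10) higher. Of all genes tested, 13.7% were lower and 13.5% higher in this way. Dppa5a, at 2203 to 2304 FPKM in DMSO and 1672 to 2125 in PFOA, held the largest part of the sum. The part of these markers in the differences above was not tested.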

How the data were processed

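Polyadenylated RNA of 6 libraries (3 DMSO, 3 PFOA) was sequenced on a BGISEQ-500, per the labels' protocols. The authors deposited FPKM to 2 decimals, with 1 column per library. HISAT2 2.0.4, Bowtie2 2.2.5 and GRCm39 are named in the submitters' processing notes. Their roles, the counter and the gene annotation were not given in the sources used here. The depth is unknown, so no counting error can be given.

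Groups and replicate numbers came from the library titles. The scale was log2(FPKM + 1), over 11876 genes whose mean FPKM reached 1, leaving out 6512. Groups were compared with limma 3.58.1 in R 4.3.3, with its variance trend on intensity, two-sided, and Benjamini-Hochberg adjustment over all genes (threshold 0.05). The fit was tested on simulated data. Transcript length (found for 97.1% of tested genes), GC content and the 50-nt words a gene shares with others were taken from GENCODE M21 (GRCm38); a length trend was a lowess curve (span 0.3) per library. Promoter sequences came from RefSeq (GRCm38.p6). Members and lists were chosen with earlier results of these data known.

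Members were named when among the 12 largest differences, the 5 highest or 5 lowest levels, the highest of a role, or when the groups did not overlap; the others are given by value. Up to 2 genes with the largest differences and groups apart were named per partner list. Alternatives covered the pseudocount, filters, scaling, length, GC content, single libraries, controls and the replicate block.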

Additional observations from a re-analysis of the deposited data

How the results depend on the processing

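The count of genes past the limma threshold was 0 under every alternative run, with 1 to 17 genes higher and 0 to 2 lower at an unadjusted p under 0.05; the lowest, 1 higher, came with the longest-transcript trend removed and with DMSO 3 as the sole control. The median log2 difference of 0.11 lay between 0.071 and 0.12 when 1 library at a time was left out, and the count of genes with PFOA above between 19 and 24. Groups lie apart more easily with fewer libraries. The share of all genes with PFOA above was 13.5% with every library and 16.1% without PFOA 1. For the other libraries left out it is not given here. The median was 0.039 once a trend on the longest transcript was removed and 0.053 for one on the median transcript length. The counts with PFOA above were then 8 (10.7% of all genes) and 11 (share of all genes not given here). Under the former 10 genes changed sign, among them Kmt2d (−0.031), Kdm5d (−0.030) and Nsd3 (−0.016), which stayed positive under the latter (0.015, 0.0040 and 0.077). Nsd1 was 0.057 under the former and 0.28 under the latter. Setd1a (0.018 and 0.17), Kdm2a (0.0014 and 0.14), Setd2 (0.090 and 0.19) and Kmt2c (0.090 and 0.16) were also larger under the latter. Others were smaller, such as Kdm4c (0.052 and 0.030). The values of single genes therefore depend on which transcript length is used. The count of genes with PFOA below was 0 at a mean of at least 5 FPKM, where fewer genes were tested, 2 with libraries centred on their median, and 1 to 2 when 1 library was left out. With DMSO 3 as the sole control, 33 of 38 genes were higher, and the median log2 difference was 0.11. With the replicate number as a block the median was 0.11, 34 genes were higher and 0 passed; the numbers did not pair the libraries (correlations of −0.11, −0.0095 and −0.14 between libraries of the same number). The block gives no count of groups that lie apart, nor does the single control. Depth could not be judged, and 3 libraries a group limit the precision.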
